A study of Mus musculus with 7 samples.

Results

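The expression of double-positive (DP) thymocytes that had lost the Id proteins Id2 and Id3 was compared with that of Id-intact DP thymocytes, over mice with and without pTα. Of the 7 samples of the series, 6 had values and entered the comparison, 4 Id-deleted and 2 Id-intact. The Id-deleted libraries were 2 of L-DKO, in which LckCre removes floxed Id2 and Id3 from developing T cells, and 2 of LP, which is L-DKO on a pTα-deficient (pTαKO) background. The Id-intact libraries were 1 of WT and 1 of pTαKO (replicate 2), so that each pTα background held a single Id-intact library. All were cells negative for TCRγδ and positive for CD4 and CD8, taken by cell sorting from thymi of mice recorded as 4 to 5 weeks old. The study's methods give an age of 5 weeks for this round of DP libraries. The number of mice behind a library is not given in the sources used here, so the p-values measure the spread between these libraries.

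Id proteins lack a DNA-binding domain and hold E proteins such as E2A and HEB away from DNA, where these bind the E-box motif. In thymocytes, E proteins drive the rearrangement and survival of DP cells, and signals from the pre-TCR and the TCR raise Id3 and thereby lower E protein activity. pTα pairs with a newly made TCR beta chain to form the pre-TCR, the receptor that passes cells from the double-negative (DN) to the DP stage. Mice without Id2 and Id3 in T cells are known for expanded invariant natural killer T (iNKT) cells, which are selected from DP cells.

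Values are log2(FPKM + 1), where FPKM corrects the fragments counted on each gene for gene length and library size. The Id effect is the difference of Id-deleted minus Id-intact libraries on that scale, with pTα status as the second factor. It is given with its standard error (SE) from limma, and adjusted p is the Benjamini-Hochberg value over the 12063 genes tested.

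Libraries also differed in composition and in markers of other cells. The 20 most abundant entries took between 53.55% and 72.6% of all FPKM in the Id-deleted libraries, against 29.97% in WT and 58.9% in pTαKO. Myeloid and dendritic cell markers (17 of 20 listed were tested) summed to 42.7 to 139 FPKM in the Id-deleted libraries, against 41.7 in WT and 465 in pTαKO. The 7 tested B cell markers of 12 listed summed to 45.7 to 122 FPKM, against 63.1 in WT and 306 in pTαKO. The Y-linked gene Ddx3y was listed at 5.14 and 4.81 in L-DKO and at 4.21 and 0.63 in LP, against 4.36 in WT and 0.67 in pTαKO, so the libraries are not of 1 sex. DP markers were high in all 6 libraries, with Cd4 at 9.08 to 9.55 in the Id-deleted libraries, against 9.18 in WT and 9.20 in pTαKO. Ptcra, which encodes pTα, was listed at 6.35 and 6.62 in L-DKO and at 5.35 and 5.87 in LP, against 5.06 in WT. It was at 5.75 in the library labelled pTαKO, so Ptcra was not lower in the libraries labelled pTα-deficient than in WT. A value over the whole gene does not check that deletion, since the deleted stretch is not given in the sources used here.

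Id3 was low in every Id-deleted library, whereas Id2 overlapped between the groups in the absence of pTα. Id3 was listed at 1.91 and 3.32 in L-DKO and at 1.96 and 3.18 in LP, against 6.22 in WT and 5.25 in pTαKO. The groups did not overlap, and the Id effect was -3.14 ± 0.54 (SE, adjusted p = 0.489 in limma). An exact permutation test with labels exchanged within each pTα background gave p = 0.111 (2-sided), the smallest that its 9 arrangements allow. Id2 was listed at 1.00 and 0.24 in L-DKO and at 1.92 and 0.99 in LP, against 3.56 in WT and 1.87 in pTαKO. LP replicate 1 lay just above pTαKO, and the Id effect was -1.67 ± 0.67 (exact permutation p = 0.222, 2-sided). Of 7 Id and E protein genes listed, 4 were tested (Id2, Id3, Tcf3 and Tcf4), and the gene of HEB was not among them. Tcf3, which encodes E2A, lay between 6.73 and 7.24 in the Id-deleted libraries, against 7.17 in WT and 6.96 in pTαKO (Id effect -0.07 ± 0.16). Tcf4, which encodes E2-2, had an Id effect of 0.10 ± 0.37, with a positive difference in the presence of pTα (0.88) and a negative one in its absence (-0.67).

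Gzma, the granzyme A of cytotoxic granules, was higher in the Id-deleted libraries of each background. It was listed at 5.72 and 5.75 in L-DKO and at 7.51 and 7.19 in LP, against 4.66 in WT and 5.95 in pTαKO. L-DKO libraries lay below pTαKO, so the separation held within each background and not over all 6 libraries. The difference was 1.07 with pTα and 1.40 without it, and the Id effect was 1.24 ± 0.15 (adjusted p = 0.289 in limma, exact permutation p = 0.111, 2-sided). Bbc3, which encodes the apoptosis inducer PUMA, was separated over all 6 libraries. It was listed at 5.28 and 5.16 in L-DKO and at 5.31 and 5.36 in LP, against 4.37 in WT and 4.24 in pTαKO, with an Id effect of 0.97 ± 0.14 (adjusted p = 0.473 in limma).

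Over all genes, 2 passed the test (adjusted p under 0.05 in limma) as higher in Id-deleted cells (0.0166%) and 0 as lower (0.0%). At an unadjusted p under 0.05 in limma, 401 genes were higher (3.32%) and 374 lower (3.1%). The 2 called genes were Mirlet7i, a let-7 microRNA gene, and Slc25a12, a mitochondrial aspartate and glutamate carrier. Mirlet7i was listed at 16.84 and 15.87 in L-DKO and at 15.84 and 16.81 in LP, and at 0 in both WT and pTαKO (adjusted p = 0.000134 in limma). It took between 3.56% and 8.43% of all FPKM in the Id-deleted libraries. Slc25a12 was listed at 14.09 and 14.12 in L-DKO and at 16.10 and 14.06 in LP, and at 0 in both WT and pTαKO (adjusted p = 0.00145 in limma). Its share of all FPKM in the Id-deleted libraries lay between 0.825% and 6.05%. Slc25a12 spans 93512 bases in RefSeq, and its values there lay far above those of Cd4 (9.08 to 9.55 in the same libraries). Whether they count transcripts of the carrier gene was not tested, so the call is not read as a change of that gene. Both calls rest on values listed at 0, which need not mean that no RNA was present, and 0 genes passed in either direction in limma once genes listed at 0 in any library were left out, with 395 higher and 389 lower at an unadjusted p under 0.05.

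The mature product of Mirlet7i is shown because it identifies the called locus, an RNA of 85 bases in RefSeq (GRCm38.p6, chr10:122985640-122985724, minus strand). Capitals mark the seed, bases 2 to 8, by which a microRNA pairs with its targets.
mmu-let-7i-5p: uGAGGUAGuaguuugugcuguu
A value at this locus counts fragments over it and does not measure the mature microRNA.

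Shifts in the same direction with and without pTα were then sought. The differences L-DKO minus WT and LP minus pTαKO share no library. They had the same sign in 52.7% of genes, and across genes, which are not independent replicates, they correlated weakly (Pearson 0.081, Spearman 0.08). Of 354 genes that differed at least 2-fold in both backgrounds, 197 did so in the same direction and 157 in opposite directions. All 4 Id-deleted libraries lay above both Id-intact ones in 837 genes (6.94%) and below them in 708 (5.87%). Within backgrounds, both Id-deleted libraries lay above the Id-intact one in 1638 genes (13.6%) and below it in 1403 (11.6%) in each of the 2 backgrounds. They lay above it in 1 background and below it in the other in 2404 (19.9%). At least 2-fold in both backgrounds and with no overlap between the 4 and the 2 libraries were 62 higher genes (0.514%) and 57 lower genes (0.473%). These sets are a description chosen by size, and 24 of the higher and 19 of the lower ones were gene models, receptor segments or small RNAs.

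**Figure D1:**
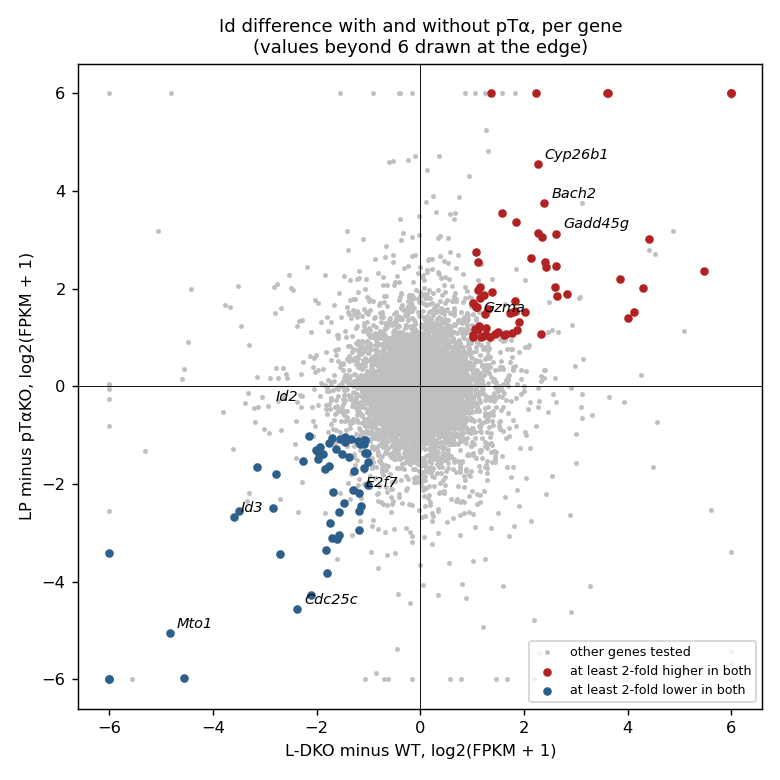
Difference of Id-deleted and Id-intact libraries per gene on the log2(FPKM + 1) scale, with pTα on the x axis (L-DKO minus WT) and without it on the y axis (LP minus pTαKO), for the 12063 genes tested. Red points are the 62 genes at least 2-fold higher and blue points the 57 genes at least 2-fold lower in both backgrounds without overlap, and the grey points form a cloud with little slope (Pearson 0.081).

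Among the higher genes, Gadd45g had the lowest adjusted p after Mirlet7i and Slc25a12. Gadd45g, a stress-inducible activator of MAP kinase signalling, was listed at 3.43 and 3.67 in L-DKO and at 4.07 and 3.65 in LP, against 0.93 in WT and 0.74 in pTαKO. Every Id-deleted library lay above both Id-intact ones by more than their own spread, and the Id effect was 2.87 ± 0.29 (adjusted p = 0.181 in limma). Bach2, a transcriptional repressor that restrains effector differentiation of T cells, was listed at 4.31 and 3.71 in L-DKO and at 5.13 and 4.91 in LP, against 1.62 in WT and 1.27 in pTαKO. Its Id effect was 3.07 ± 0.38 (adjusted p = 0.289 in limma), the LP pair lying above the L-DKO pair.

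Cyp26b1, an enzyme that degrades retinoic acid, was listed at 2.76 and 2.22 in L-DKO and at 5.11 and 5.01 in LP, against 0.23 in WT and 0.52 in pTαKO. The difference was 2.26 with pTα and 4.54 without it, and the Id effect over both was 3.40 ± 0.55 (adjusted p = 0.473 in limma). The difference between the 2 backgrounds did not pass the test of the interaction (adjusted p = 0.996 in limma). Cntnap1, a neuronal membrane protein that the study lists in its innate-like network, was listed at 2.77 and 2.16 in L-DKO and at 2.96 and 2.76 in LP, against 0.32 in WT and 0.23 in pTαKO (Id effect 2.39 ± 0.35).

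**Figure D2:**
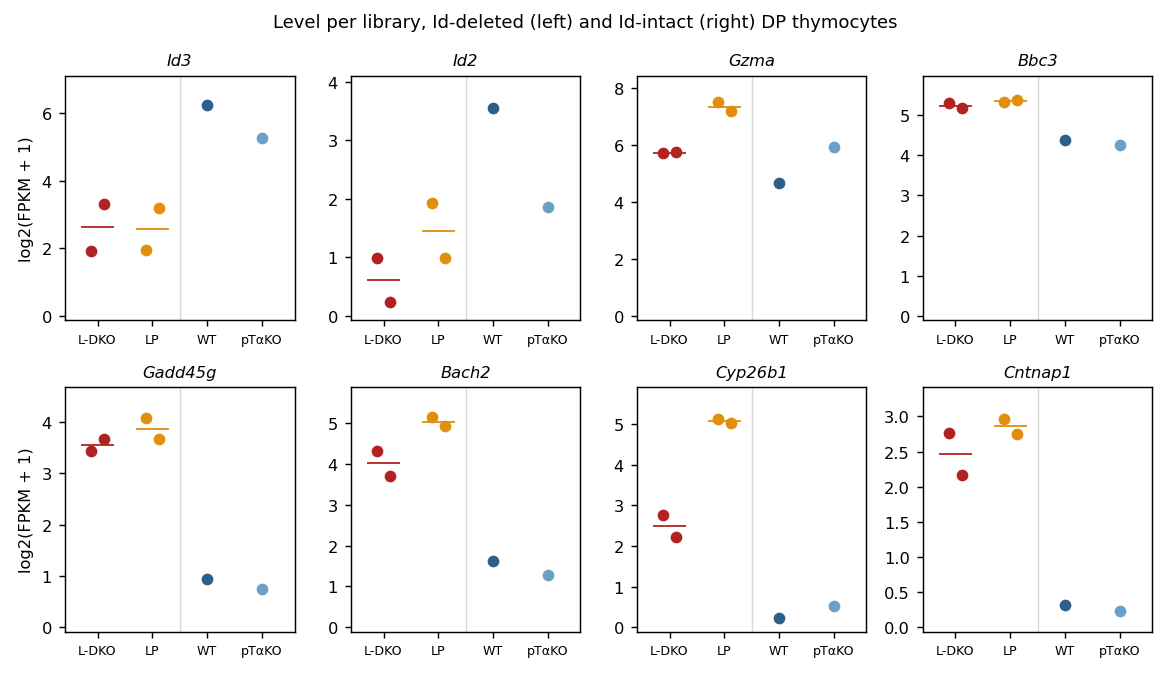
Levels of 8 genes per library as log2(FPKM + 1), with 1 point per library and a line at the mean of the 2 L-DKO and the 2 LP libraries, and with WT and pTαKO as single points. Id3 lies below both Id-intact libraries in all 4 Id-deleted ones, and Bbc3, Gadd45g, Bach2, Cyp26b1 and Cntnap1 lie above them, whereas in Id2 LP replicate 1 lies above pTαKO and in Gzma the L-DKO pair lies below pTαKO.

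The stretch upstream of the start of Gadd45g and Gzma is shown with its E-boxes, the letters that E proteins bind. These 2 genes were picked and not drawn by a rule, and Gzma is not among the 62 genes higher without overlap. Stretches of the other higher genes are not shown. The letters CAGCTG and CAGGTG were searched on both strands in the 250 bases before each RefSeq start (GRCm38.p6), and capitals mark a match, CACCTG being CAGGTG read on the other strand. The stretch of Gadd45g lies at chr13:51846425-51846674 (plus strand) and that of Gzma at chr13:113100982-113101231 (minus strand).
Gadd45g: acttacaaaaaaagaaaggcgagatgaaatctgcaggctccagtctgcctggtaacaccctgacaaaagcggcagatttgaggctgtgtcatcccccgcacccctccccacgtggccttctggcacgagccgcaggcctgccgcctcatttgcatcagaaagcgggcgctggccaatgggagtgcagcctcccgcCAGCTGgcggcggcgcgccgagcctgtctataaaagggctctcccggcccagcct
Gzma: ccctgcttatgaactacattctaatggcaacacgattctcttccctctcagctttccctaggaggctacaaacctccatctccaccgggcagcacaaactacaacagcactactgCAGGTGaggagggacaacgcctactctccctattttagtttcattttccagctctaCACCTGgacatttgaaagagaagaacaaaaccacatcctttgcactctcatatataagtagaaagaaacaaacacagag
The match begins 55 bases before the start in Gadd45g, and in Gzma the matches begin 135 and 79 bases before it. Of 32851 such stretches, 13.0% held CAGCTG, 17.2% held CAGGTG and 27.7% held either, so a match is common and is a description, not a binding site. Only 30 of the 62 higher and 30 of the 57 lower genes had such a stretch. Of these, 40.0% and 33.3% held either motif, against 28.6% of the 7879 tested genes with a stretch. These shares cover part of each set, and their difference was not tested.

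Pdcd1, the inhibitory receptor PD-1, was listed at 2.62 and 4.63 in L-DKO and at 3.70 and 3.46 in LP, against 2.29 in WT and 2.58 in pTαKO (Id effect 1.17 ± 0.55). Zbtb7b, which encodes ThPOK, the regulator of the CD4 lineage, was listed at 2.29 and 1.63 in L-DKO and at 2.47 and 1.71 in LP, against 0.84 in WT and 0.92 in pTαKO (1.15 ± 0.39). Spry2, a feedback inhibitor of Ras signalling, was listed at 1.67 and 2.22 in L-DKO and at 2.45 and 2.25 in LP, against 0.86 in WT and 0.72 in pTαKO (1.36 ± 0.35). The groups did not overlap in any of these 3 genes, and each differed at least 2-fold in both backgrounds. The costimulatory receptor gene Tnfrsf9, which encodes 4-1BB, had an Id effect of 1.23 ± 0.41. Tigit, another inhibitory receptor, was uneven in the Id-deleted libraries, at 2.00 and 1.81 in L-DKO and at 2.53 and 0.10 in LP, and was listed at 0 in WT and pTαKO. None of these genes passed the test (adjusted p = 0.728 to 0.799 in limma).

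The remaining higher genes by the naming rule were of mixed function. Kcnf1, a potassium channel subunit, had an Id effect of 2.31 ± 0.35 and Klk8, a secreted serine protease, of 2.60 ± 0.45. Ctdspl2, a phosphatase, lay between 5.82 and 7.73 in the Id-deleted libraries, against 4.33 in WT and 4.56 in pTαKO. Crmp1 (2.24 ± 0.80) and the matrix protein gene Adamtsl4 (1.78 ± 1.16) were uneven within the Id-deleted group, and Adamtsl4 was listed at 0.79 in L-DKO replicate 2 and 0.60 in LP replicate 1, against 0.60 in WT and 0.38 in pTαKO. Rps3a3 and Hist1h2al also qualified, but each has near-identical copies in the genome, among which reads may be split, and their values are uncertain.

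Among the lower genes, regulators of the cell cycle stood beside genes with very uneven values. Cdc25c, the phosphatase that activates Cdk1 at mitosis, was listed at 0.49 and 0.79 in L-DKO and at 0.46 and 0 in LP, against 3.02 in WT and 4.80 in pTαKO (Id effect -3.48 ± 0.56, adjusted p = 0.473 in limma). E2f7, a repressor of E2F targets, was listed at 2.13 and 2.97 in L-DKO and at 2.06 and 2.77 in LP, against 3.74 in WT and 4.59 in pTαKO (-1.68 ± 0.41). Both genes were separated in each background. Mto1, which modifies mitochondrial transfer RNA, was close to the threshold (-4.94 ± 0.41, adjusted p = 0.0834 in limma), and was listed at 0 in L-DKO replicate 1 and LP replicate 2 and at 0.0003 in L-DKO replicate 2, against 4.84 in WT and 5.63 in pTαKO.

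Acpp, an acid phosphatase, was steady in the Id-deleted libraries, at 1.47 and 1.54 in L-DKO and at 1.21 and 1.44 in LP, against 3.34 in WT and 3.02 in pTαKO (-1.77 ± 0.29). Dzip3, a ubiquitin ligase, had an Id effect of -1.89 ± 0.36. Jazf1, a zinc finger cofactor, was listed at 11.23 in L-DKO replicate 1 and at no more than 1.19 in the other 3 Id-deleted libraries, against 14.44 in WT and 11.45 in pTαKO. Sugct, a coenzyme A transferase, lay between 0.16 and 6.61 in the Id-deleted libraries, against 9.32 in WT and 8.59 in pTαKO. Kctd17 (-1.70 ± 0.51) and the sulfotransferase gene Sult6b1 (-2.31 ± 0.51) completed the list, and the histone genes Hist1h2bk, Hist1h4f and Hist1h2bp have near-identical copies, so that their values are uncertain.

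Of 57 cell cycle genes listed, 53 were tested, and 45 had a negative Id effect, beside 5937 of all 12063 genes. The median was -0.32, beside 0.005 over all genes tested. Both Id-deleted libraries lay below the Id-intact one in each background for 14 members (26.4%, against 11.6% of all genes) and above it for 0 (against 13.6%). No member passed the test. At an unadjusted p under 0.05 in limma, 4 were lower (7.55%, against 3.1% of all genes) and 0 higher (against 3.32%). The median difference was -0.07 with pTα and -0.48 without it, and the difference between these medians was not tested. The median Id effect was -0.07 without the pTαKO library and -0.21 without LP replicate 1.

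Cdk1, the mitotic cyclin-dependent kinase, was listed at 6.16 and 6.62 in L-DKO and at 5.52 and 5.96 in LP, against 6.90 in WT and 6.71 in pTαKO (Id effect -0.74 ± 0.21). Cdc6, which loads the replicative helicase, was listed at 3.59 and 3.90 in L-DKO and at 2.88 and 3.20 in LP, against 4.41 in WT and 3.91 in pTαKO (-0.76 ± 0.22). Both were below both Id-intact libraries in all 4 Id-deleted ones, although L-DKO replicate 2 lay close to pTαKO for each. Mki67, a marker of cycling cells, overlapped, since L-DKO replicate 1 (6.001) lay above pTαKO (5.93). The exceptions in the list included Ccnd2, the D-type cyclin of growth signals, with an Id effect of 0.73 ± 0.59.

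**Figure D3:**
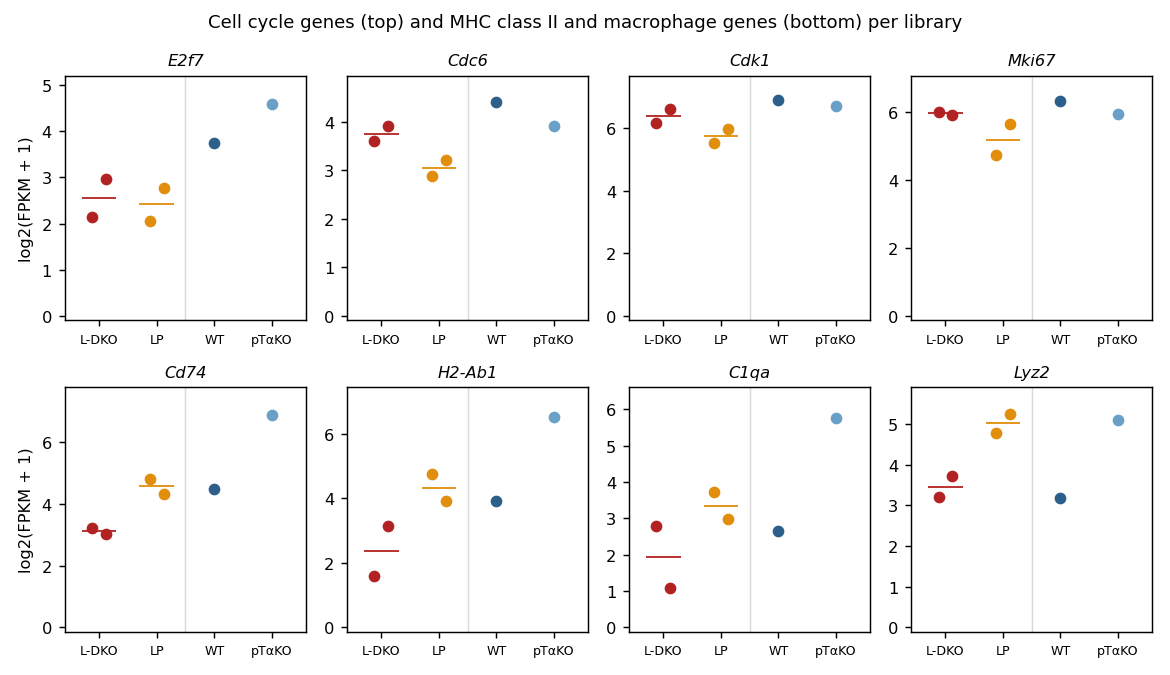
Levels of 4 cell cycle genes (top row) and of 4 MHC class II and macrophage genes (bottom row) per library as log2(FPKM + 1), with lines at the means of the 2 L-DKO and the 2 LP libraries. E2f7, Cdc6 and Cdk1 are lower in all 4 Id-deleted libraries than in both Id-intact ones, whereas Cd74, H2-Ab1 and C1qa are highest in the pTαKO library.

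Genes of TCR signalling and selection lay higher on balance. Of 44 TCR-signalled and post-selection genes, 38 were tested, and 30 had a positive Id effect (median 0.31), beside 6126 of all 12063 genes. Both Id-deleted libraries lay above the Id-intact one in each background for 13 members (34.2%, against 13.6% of all genes) and below it for 3 (7.89%, against 11.6%). The median difference was 0.01 with pTα and 0.63 without it, and the difference between these medians was not tested. The median Id effect was 0.01 without the pTαKO library, 0.63 without WT and 0.19 without LP replicate 2. At an unadjusted p under 0.05 in limma, 7 members were higher (18.4%, against 3.32% of all genes) and 1 lower (2.63%, against 3.1%). None passed after adjustment.

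Cd2, an adhesion and costimulatory receptor, was listed at 7.47 and 7.41 in L-DKO and at 6.71 and 6.37 in LP, against 6.86 in WT and 5.47 in pTαKO (0.82 ± 0.17). Egr1, induced early by TCR signals, had values of 5.60 and 5.22 in L-DKO and at 4.79 and 4.27 in LP, against 5.06 in WT and 2.996 in pTαKO (0.94 ± 0.32). For both genes pTαKO was the lowest of the 6 libraries, and the pTα-sufficient pair lay above the pTα-deficient pair. Ccr7, a chemokine receptor of medullary thymocytes, was listed at 2.08 and 1.95 in L-DKO and at 3.04 and 3.05 in LP, against 1.49 in WT and 1.47 in pTαKO (1.05 ± 0.35). Klf2, a regulator of thymic egress, had an Id effect of 1.42 ± 0.56, with 0.23 of difference in the presence of pTα and 2.60 in its absence.

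Proximal TCR signalling genes had a median of 0.11, with 12 of 35 tested members higher than the Id-intact library in both backgrounds (34.3%, against 13.6% of all genes) and 2 lower (5.71%, against 11.6%). Genes of iNKT selection and development (38 of 41 tested) had a median of 0.15, with 11 members higher in both backgrounds (28.9%, against 13.6% of all genes) and 2 lower (5.26%, against 11.6%). The lists share members. Egr1, Klf2, Tox and Zbtb7b count as higher in this list and in the TCR-signalled list, and Cd2 in the TCR-signalled and proximal lists. Zbtb16 encodes PLZF, which directs innate-like T cells, and had values of 0.69 and 0.29 in L-DKO and at 1.74 and 2.44 in LP, against 0.03 in WT and 0.02 in pTαKO. All 4 Id-deleted libraries were above both Id-intact ones, with an Id effect of 1.27 ± 0.52 (adjusted p = 0.774 in limma). Vdr, the vitamin D receptor, had an Id effect of 2.04 ± 0.68, of which the larger difference was without pTα (3.42, and 0.65 with it). Zbtb16, Gzma and other members are named in the study from these same libraries, so the direction of these lists is not independent evidence.

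Follicular helper-like genes (14 of 21 tested) had a median of 0.24, and 6 members lay higher in both backgrounds (42.9%, against 13.6% of all genes) and 0 lower (against 11.6%). Of the 6, Pdcd1 and Tox also count in the TCR-signalled list, and Icos, Tox and Sh2d1a in the iNKT list. The lists are therefore not separate results. Btla, an inhibitory receptor, had an Id effect of 0.84 ± 0.37, and Izumo1r, the folate receptor FR4, was listed at 3.23 and 2.58 in L-DKO and at 4.97 and 5.51 in LP, against 2.78 in WT and 0.81 in pTαKO. Izumo1r thus overlapped in the presence of pTα. Innate-like and cytotoxic effector genes (13 of 38 tested) had a median of 0.37, with 2 higher in both backgrounds (15.4%, near the 13.6% of all genes), Zbtb16 and Gzma. Ccl5, an effector chemokine, was listed at 0.11 and 0.17 in L-DKO and at 1.79 and 2.56 in LP, against 2.93 in WT and 1.80 in pTαKO, so it did not follow Gzma. Stress genes lay higher too. Of 24 tested heat shock and immediate early genes, 19 had a positive Id effect, beside 6126 of all 12063 genes (medians 0.20 and 0.005). Higher in both backgrounds were 8 members (33.3%, against 13.6% of all genes), and lower was 1 (4.17%, against 11.6%). None passed the test. Ddit4, a stress-induced inhibitor of mTOR, differed by 0.68 ± 0.19. The part of these genes in the results on TCR-signalled genes was not tested.

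**Figure D4:**
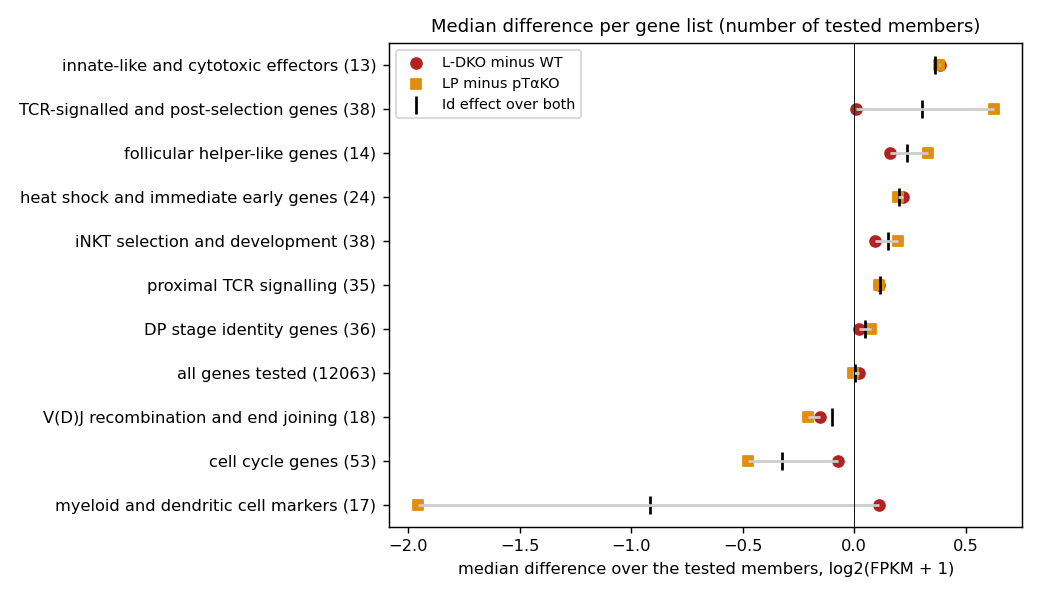
Median difference per gene list on the log2(FPKM + 1) scale, with L-DKO minus WT as circles, LP minus pTαKO as squares and the Id effect over both as a bar, and with the number of tested members in brackets. The cell cycle list lies below 0 (median -0.32) and the TCR-signalled list above 0 (0.31), in both the square lies farther from 0 than the circle, and the myeloid markers lie at 0.11 with pTα and at -1.96 without it.

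Genes that define the DP stage differed little. Of 43 listed, 36 were tested, with a median Id effect of 0.05, and 7 members lay higher in both backgrounds (19.4%, against 13.6% of all genes) and 6 lower (16.7%, against 11.6%). Themis, a TCR signalling adaptor of DP cells, was listed at 7.20 and 7.16 in L-DKO and at 7.08 and 7.29 in LP, against 7.50 in WT and 7.45 in pTαKO (-0.30 ± 0.11). Cd24a, a surface marker lost as thymocytes mature, differed by -0.27 ± 0.10 and Dntt, the terminal transferase of V(D)J joining, by -0.14 ± 0.12, with no overlap for either. V(D)J recombination and end joining genes (18 of 22 tested) had a median of -0.10, with 0 members higher in both backgrounds (against 13.6% of all genes) and 4 lower (22.2%, against 11.6%), among them the end joining factors Trp53bp1 (-0.71 ± 0.31) and Nhej1 (-0.62 ± 0.24).

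MHC class II genes, which antigen-presenting cells express, lay lower in Id-deleted cells of each background, while myeloid and dendritic markers lay lower on balance without pTα and not with it. Cd74, the invariant chain, was listed at 3.21 and 3.03 in L-DKO and at 4.81 and 4.33 in LP, against 4.47 in WT and 6.87 in pTαKO (-1.83 ± 0.28, adjusted p = 0.473 in limma). H2-Ab1, a class II beta chain, was listed at 1.59 and 3.15 in L-DKO and at 4.76 and 3.91 in LP, against 3.92 in WT and 6.51 in pTαKO (-1.86 ± 0.49). The L-DKO pair was lowest and pTαKO highest. Of the 17 tested myeloid markers, 15 had a negative Id effect (median -0.92), beside 5937 of all 12063 genes. The median was 0.11 with pTα and -1.96 without it, and 3 members lay lower in both backgrounds (17.6%, against 11.6% of all genes). C1qa, a complement gene of macrophages, was listed at 2.78 and 1.08 in L-DKO and at 3.72 and 2.98 in LP, against 2.66 in WT and 5.76 in pTαKO. None of the 17 was at 0 in any library, and of the 7 tested B cell markers Igkc alone was, in L-DKO replicate 2. The part of such cells in the MHC class II values was not tested, and in bulk libraries fewer cells of a type and less RNA per cell cannot be told apart.

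The study links E2A to a network of innate-like genes. Its reference set came from public data of WT iNKT and γδNKT cells, with some genes added from the literature. The network kept those reference genes that differed in Id3-/- γδ T cells, L-DKO iNKT cells or both. Of its genes with an E2A peak in L-DKO DP cells, 67 of 83 were tested, and they had a median Id effect of 0.04, with 14 higher (20.9%, against 13.6% of all genes) and 11 lower (16.4%, against 11.6%) in both backgrounds. Of its genes with no such peak, 21 of 27 were tested, and they had a median of -0.08, with 3 higher and 3 lower (14.3% each). The members at the extremes with a peak were Id3, Id2, Spry2 and Xdh, a purine oxidase with an Id effect of -1.32 ± 0.41, and without a peak Cntnap1 lay highest. Id3 and Id2 are the deleted genes themselves, and Id3 counts among the 11 lower.

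The Id difference itself was tested for dependence on pTα. The interaction passed the test for 6 genes (0.0497%, adjusted p under 0.05 in limma), and 538 had an unadjusted p under 0.05. Of the 6, 4 were entries listed at 0 in pTαKO alone (AC034285.2, AC034285.4, Rn18s-rs5 and Yam1), and the others were Gm8730 and Tmcc3. Tmcc3, a membrane protein, was listed at 4.33 and 4.22 in L-DKO and at 4.19 and 4.11 in LP, against 3.71 in WT and 12.48 in pTαKO, so that a single library set its value.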

How the data were processed

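RNA-Seq was done by the submitters on RNA of sorted DP thymocytes, taken here as poly(A) RNA. The study's methods describe depletion of ribosomal RNA for a first round of libraries and name no RNA selection for this later round. The kind of RNA is therefore uncertain. According to the submitters' processing notes, the tools were Trimmomatic 0.32, TopHat2 2.0.9 (build mm10, GRCm38) and Cufflinks 2.2.0. A filter on genes was applied by a rule not given in the sources used here. The authors deposited log2 values of FPKM, per the file headers. Values were 0 or above and were taken as log2(FPKM + 1). Depth is unknown, so no counting interval is given. FPKM divides by length, so few fragments can give a high value at a short locus. Columns of the authors' means and differences were not used, and pTαKO replicate 1 is not analysed here.

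The 13097 entries held 12092 symbols, of which each kept its entry of highest mean FPKM. Hyphens written as NA were restored in 297 symbols. The tests ran on 12063 genes (mean FPKM 0.5 or more). An additive model of Id and pTα status was fitted with limma 3.58.1 in R 4.3.3 (lmFit, and eBayes with a trend), with 3 residual degrees of freedom. Differences within a pTα background and the interaction came from a fit with 1 mean per genotype (2 residual degrees of freedom), which lends WT and pTαKO the spread of the duplicated genotypes. Id2, Id3 and Gzma also had exact permutation tests. Gene lists were described by counts and medians, with no set test. Genes were named if they were the targeted genes, E proteins or called, if they ranked among the 12 largest in a direction by the smaller of the 2 within-background differences (at least 2-fold, no overlap, gene models and segments left out), or if they led a list, with up to 4 members each or those needed to show what it did. Tigit was named after their values were seen. Members and lists were chosen with earlier results of these data known. Promoters and the microRNA came from RefSeq tables (GRCm38.p6). The alternatives were other filters, a pseudocount of 0.1, other scalings and models, each library left out, a replicate block, and, chosen after seeing the data, genes listed at 0 left out. Results on some genes are not reported here.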

Additional observations from a re-analysis of the deposited data

Results flagged for a closer look

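In 5 of 29 named genes, 1 of the 4 Id-deleted libraries stood apart from the other 3, by a gap that took most of the group's range. The gap was 0.972 of the range for Slc25a12 (LP replicate 1 high), 0.899 for Jazf1 (L-DKO replicate 1 high), 1.0 for Mto1 and 0.859 for Hist1h4f (LP replicate 1 high in both), and 0.886 for Kctd17 (L-DKO replicate 2 low). For 4 values drawn from 1 normal population, chance flags about 1 in 20 groups. Here the 4 libraries are of 2 genotypes and most of the genes were picked for large shifts, so the 5 of 29 cannot be set against that rate. No list median was separated in this way.

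The Id difference was not the same with and without pTα in 6 genes by the test of the interaction in limma. LP minus pTαKO exceeded L-DKO minus WT by 11.59 for AC034285.2, 12.38 for AC034285.4, 13.24 for Rn18s-rs5 and 10.94 for Yam1, all 4 listed at 0 in pTαKO and at 9.89 or more in the 4 Id-deleted libraries. Gm8730 differed by 4.75 and was listed at 3.90 and 4.00 in L-DKO and at 8.10 and 7.98 in LP, against 8.55 in WT and 7.89 in pTαKO. For Tmcc3 the difference was -8.89.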

How the results depend on the processing

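Of 110 genes followed over 17 alternatives, 86 kept the sign of their Id effect in every one that held them. These include all 24 genes named for a shift in both backgrounds. The 24 were chosen for a shift of at least 2-fold in both backgrounds without overlap, so their kept sign follows largely from that choice and is no separate support. The 2 calls held in the 16 alternatives that kept the genes, and leaving out genes listed at 0 gave 0 genes higher and 2 for the interaction. With 1 mean per genotype, 7 genes were called higher and 3 lower. A pseudocount of 0.1 gave 109 genes higher and 90 lower by 2-fold in both backgrounds, and a mean FPKM of at least 5 gave 34 and 28. With each library left out, calls ran from 2 to 9 higher and 0 to 3 lower, unadjusted p under 0.05 from 289 to 392 higher and 226 to 401 lower, 2-fold genes from 66 to 82 higher and 72 to 87 lower, genes beyond the Id-intact library of their own background from 2236 to 2387 higher and 1916 to 2252 lower, and interaction calls from 4 to 15. Without WT 9 genes were called higher and 3 lower, and without pTαKO 2 and 3, and no interaction or comparison of both backgrounds could then be had. Interaction calls numbered 13 without LP replicate 1 and 15 without LP replicate 2. Without LP replicate 1, 87 genes were 2-fold lower in both, without L-DKO replicate 2, 2252 lay below the Id-intact library of their own background, and without pTαKO 226 were lower at an unadjusted p under 0.05. The replicate block over the 5 numbered libraries (WT has no number) called 11 higher and 2 lower, but same-numbered libraries did not deviate together (correlation across genes 0.035), so the numbers are not taken to pair the samples. List medians kept their sign in all alternatives for cell cycle genes (-0.48 to -0.07) and TCR-signalled genes (0.01 to 0.63). The single Id-intact library per background and the unknown depth limit every value.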

Other observations

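TCR alpha V segments (101 tested) had a median Id effect of -0.30, alike with pTα (-0.26) and without it (-0.25), and 15 lay lower and 8 higher than the Id-intact library in both backgrounds (14.9% and 7.92%, against 11.6% and 13.6% of all genes). TCR beta V segments (19 tested) had a median of -0.11. In both backgrounds 6 lay lower (31.6%, against 11.6% of all genes) and 1 higher (5.26%, against 13.6%). Alpha J segments had a median of -0.07 and gamma and delta segments of -0.05. Survival and death genes had a median of 0.13, with Bbc3 highest.

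Glycolysis enzymes (22 tested) had a median of 0.16. In both backgrounds 7 lay higher (31.8%, against 13.6% of all genes) and 2 lower (9.09%, against 11.6%). The glucose transporter genes Slc2a3 and Slc2a1 had Id effects of 0.71 ± 0.25 and 0.63 ± 0.27. The phosphofructokinase gene Pfkl lay between 3.92 and 4.92 in the Id-deleted libraries, against 9.01 in WT and 3.52 in pTαKO (-1.79 ± 1.14). Nuclear-encoded respiratory chain genes (80 tested) had a median of -0.06, and cytosolic ribosomal proteins (68 tested) of 0.04. Interferon-stimulated genes had a median of -0.10, cytokine receptors of 0.13, and chemokine receptors and migration genes of 0.15. Genes linked to E proteins in thymocytes had a median of 0.02, gamma-delta lineage regulators of 0.17, DN and pre-TCR stage genes of -0.13, and genes that the study names of 0.35. B cell markers had a median of 0.16 but of -0.78 with pTα and -0.31 without it, with Jchain, of antibody-secreting cells, at 2.46 and 1.00 in L-DKO and at 4.72 and 4.94 in LP, against 0.78 in WT and 0.52 in pTαKO. Erythroid and platelet markers had a median of 0.46 (1.12 with pTα and -0.19 without it), and thymic epithelium and stroma markers, 2 tested, of 0.14.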
